A study of Mus musculus with 35 samples.

Results

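The replication-dependent histone genes were taken as every gene of the deposited count table whose symbol is H1f1 to H1f5, or H2ac, H2bc, H3c or H4c followed by a number. The rule found 56 genes among 36106: 5 for the linker histone H1, 15 for H2A, 14 for H2B, 12 for H3 and 10 for H4. It used names only and no measured value. Another 10 histone genes that the table lists under older names, such as Hist1h4m and Hist1h2ap, are outside the rule, so the H2A, H2B and H4 sums below lack them. In the GENCODE M21 annotation of mouse build GRCm38, 46 members lay on chromosome 13 between bases 21715763 and 23934851 and 10 lay on chromosome 3 between bases 96219865 and 96270132. Of the 56, 54 were annotated as a single exon, the usual form of these genes. H2ac1 and H2bc1 had a count of 0 in all 35 libraries, and 47 members were above 0 in every library.

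RNA had been sequenced in bulk from skin of female C57BL/6J mice, an inbred strain, which were 10 weeks old and 19 in number. Sham skin came from 3 mice that had no radiation. Radiated skin came from mice whose left flank had received 25 Gy, with 4 libraries at each of weeks 1, 2, 3 and 4. Control skin, also 4 libraries a week, is numbered like the radiated skin of the same week, so that with 35 libraries from 19 mice a radiated and a control library of 1 number were taken as 1 mouse. Control skin was therefore taken as coming from radiated animals. Where on the body it was taken, and a week for the sham skin, are not given in the sources used here. The labels say that treated skin was shaved after radiation. No agent other than radiation and no genetic change is named for any group.

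Library totals ran from 17362853 to 28487885 counts, and levels below are CPM, counts per 1000000 counts of a library after TMM scaling. Skin markers were present in every library. Nothing in the labels names a sequencing batch or date. One library stood far from its group in the histone genes: control week 2 number 1 was the highest of its 4 libraries in 50 of the 53 members above 0 there, with a summed level of 1830 CPM against 435 to 602 CPM in the other 3. Control week 1 number 1 was the highest in 47 of 54 members, at 961 CPM against 409 to 582 CPM. In radiated skin, number 3 was the highest of its group in 10, 10, 12 and 10 of the 12 H3 genes at weeks 1, 2, 3 and 4. The class sums and member counts that rest most on these libraries are also given without them.

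Histone H2A, H2B, H3 and H4 proteins form the core around which DNA is wound into nucleosomes, and H1 binds the DNA between them. The replication-dependent genes are switched on as a cell enters S phase and supply histones for newly made DNA, so in skin their RNA is largely that of dividing cells such as basal keratinocytes and the matrix of growing hair follicles. Their mRNAs end in a conserved stem-loop in place of a poly(A) tail. The stem-loop is bound by the protein Slbp, while Npat starts their transcription at the histone locus body. How the libraries were selected, by poly(A) or by removal of ribosomal RNA, is not given in the sources used here, and selection by poly(A) would leave part of this RNA uncounted.

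The stem-loop is shown here because it is the shared end of these mRNAs. Its letters set H4 apart and were shared among the other classes. A 16-base pattern that leaves some letters open was found in the annotated transcripts of 31 members, and in 44 of 21901 protein-coding genes, or 0.201%. The members held 4 versions of it. The other 25 members had no match in their annotated transcripts. For H2bc18 and H4c12 these are 381 and 312 bases long and may end before the stem-loop. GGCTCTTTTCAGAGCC was in 3 H1, 7 H2A, 6 H2B and 5 H3 genes, and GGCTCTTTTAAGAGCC was in 2 H2B and 3 H3 genes. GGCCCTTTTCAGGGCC was in 4 H4 genes and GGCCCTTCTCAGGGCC in 1, H4c1. In these 26-base windows from the GENCODE transcripts (GRCm38), read 5′ to 3′ on the strand of the gene, capitals mark the stem-loop. They lie at chr13:23555782-23555807 (+) for H1f3, chr13:23751567-23751592 (+) for H2ac4, chr13:23571838-23571863 (+) for H2bc8, chr13:23544927-23544952 (+) for H3c7, chr13:23551286-23551311 (-) for H4c6 and chr13:23760795-23760820 (-) for H4c1.
H1f3: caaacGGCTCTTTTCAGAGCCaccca
H2ac4: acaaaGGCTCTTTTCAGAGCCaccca
H2bc8: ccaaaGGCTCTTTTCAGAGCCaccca
H3c7: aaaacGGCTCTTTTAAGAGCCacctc
H4c6: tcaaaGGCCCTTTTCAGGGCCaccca
H4c1: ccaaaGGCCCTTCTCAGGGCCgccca

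Upstream sequence also differed between classes. Of the 50 members with a RefSeq promoter (GRCm38.p6, 250 bases before to 50 after the start), the octamer ATTTGCAT was found on either strand in 6 of 14 H2A and 7 of 12 H2B genes and in none of the 5 H1, 10 H3 and 9 H4 genes, against 1.74% of all 32851 promoters. CCAAT was found in 44 of the 50 (88%), with 3 of the 9 H4 genes, against 37.4% of all promoters. TATAAA was found in 30 of the 50 (60%), against 13.6%. H2bc18 is shown because it is the H2B gene with the highest level per length and holds both the octamer and CCAAT. The 250 bases before its RefSeq start, chr3:96269450-96269699 (+), have in capitals a CCAAT on the other strand 179 to 175 bases before the start, a CCAAT 79 to 75 bases before it and the octamer 48 to 41 bases before it. A match is a description of the letters and not a measured binding site.
H2bc18: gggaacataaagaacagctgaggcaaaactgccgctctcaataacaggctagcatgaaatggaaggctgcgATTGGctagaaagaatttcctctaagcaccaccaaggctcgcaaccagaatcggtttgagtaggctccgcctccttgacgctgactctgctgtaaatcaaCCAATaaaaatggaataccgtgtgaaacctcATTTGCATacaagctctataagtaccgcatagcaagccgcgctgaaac

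Summed histone RNA was below all sham libraries at weeks 1 and 2 in radiated skin and at weeks 1 and 3 in control skin. At week 2 it was so in every control library but number 1, and at week 4 both kinds of skin overlapped with sham skin, the radiated skin through number 3 alone. The levels of all members summed to 1077, 1073 and 1565 CPM in the 3 sham libraries. In radiated skin the sums were 648, 467, 836 and 665 CPM at week 1, 506, 443, 503 and 516 CPM at week 2, 498, 582, 1111 and 912 CPM at week 3, and 978, 1054, 1349 and 803 CPM at week 4. All radiated libraries of weeks 1 and 2 were below the lowest sham library, while weeks 3 and 4 overlapped with sham skin. That overlap rested on radiated number 3: without it the sums were 498 to 912 CPM at week 3 and 803 to 1054 CPM at week 4, below all sham libraries. In control skin the sums were 961, 447, 409 and 582 CPM at week 1, 1830, 602, 451 and 435 CPM at week 2, 374, 724, 507 and 651 CPM at week 3, and 1357, 1143, 1041 and 1045 CPM at week 4. At week 2 control number 1 was above all sham libraries and the other 3 were below them. In bulk tissue, fewer cells of a type and less RNA per cell cannot be told apart.

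**Figure D1:**
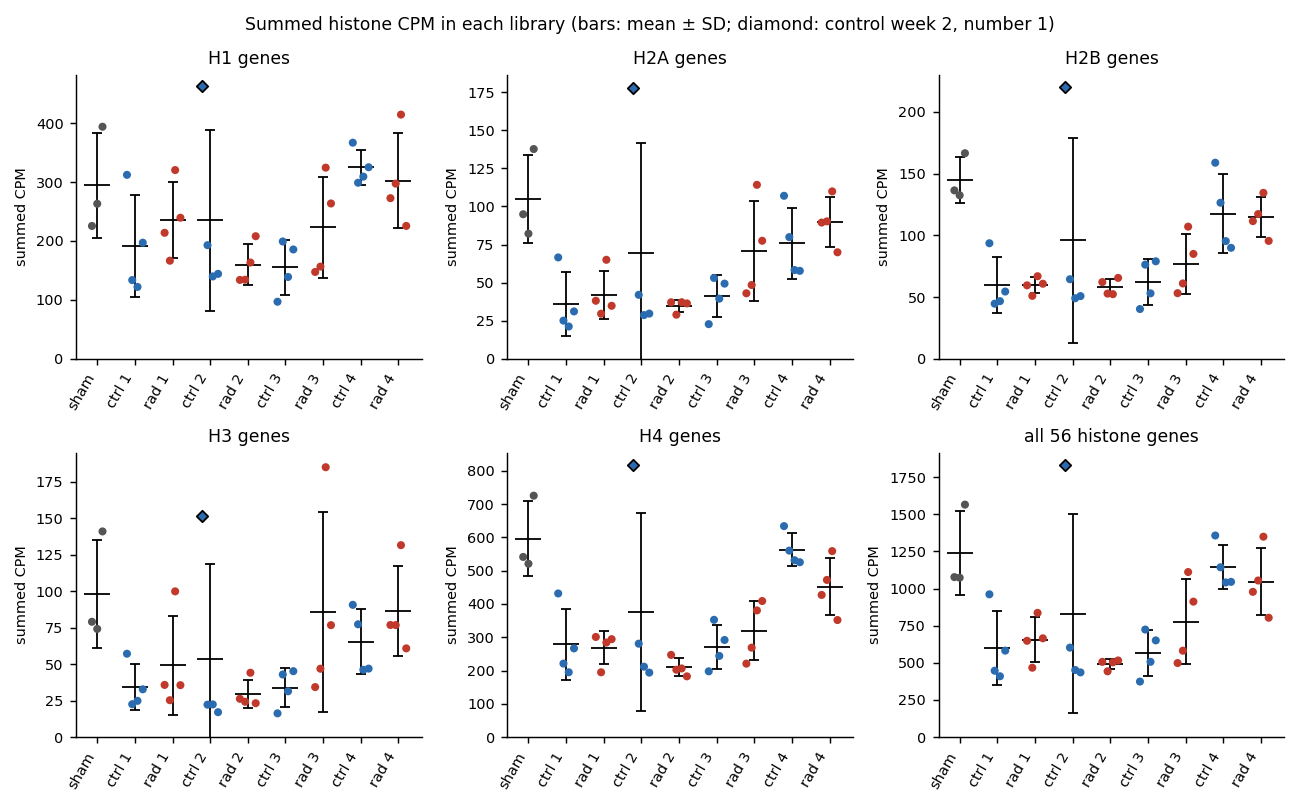
Summed level of the members of each histone class in every library (CPM, TMM-scaled), by group, with sham skin in grey, control skin in blue and radiated skin in red; each point is 1 library, the bars give the mean and the SD, cut at 0, and a diamond marks control week 2 number 1. Radiated skin of week 2 lies between 443 and 516 CPM over all members, below the 3 sham libraries at 1073 to 1565 CPM, and a single control library of week 2 stands at 1830 CPM.

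The sums of the classes carry fewer doubts than single genes, because copies share sequence: 33 of the 56 members had over 50% of their 31-base words in another annotated gene (median 57.4%), and every one of those of H2ac19 is also in H2ac18. Values that are not whole arise where reads that fit several genes are split. Of the members' values, 76.0% were not whole numbers, against 29.5% to 32.5% of all values in a library. A value within 1e-06 of a whole number counted as whole. Genes without counts also counted as whole and lower the share over all genes, so these shares are not of like genes. At week 2 in radiated skin, all 5 classes were below sham skin with no overlap. Their mean sums were 160 ± 35.0 against 294 ± 88.5 CPM for H1, 34.9 ± 3.97 against 105 ± 29.1 CPM for H2A, 58.2 ± 6.64 against 145 ± 18.7 CPM for H2B, 29.4 ± 9.84 against 98.0 ± 37.3 CPM for H3, and 210 ± 27.1 against 596 ± 113 CPM for H4 (SD, n = 4 and n = 3). The log2 ratios were -0.88, -1.59, -1.32, -1.74 and -1.51 in that order, so that H1 differed least. At week 1, H2A (-1.33), H2B (-1.29) and H4 (-1.15) did not overlap with sham skin, at week 3 H2B (-0.92) and H4 (-0.90) did not, and at week 4 every class overlapped. Without radiated number 3, H3 did not overlap at week 1 either, at 25.3 to 35.7 against 74.1 to 141 CPM, with a ratio of -1.61 where it was -0.997 with that library. At week 3 H2A (-0.90) did not overlap then either, and at week 4 H2B, at 95.5 to 117 against 132 to 167 CPM (-0.43), and H4, at 352 to 472 against 521 to 726 CPM (-0.51), did not. Without members that share over 50% of their words, the H2B ratio was smaller in size, at -0.56 at week 1, -0.60 at week 2 and -0.52 at week 3. The same choice made the H3 ratio at weeks 1 and 2 larger in size, as given in the last section. What sets the classes apart here was not tested. Control skin did not overlap with sham skin in H2A, H2B, H3 and H4 at week 1 (-1.55, -1.28, -1.52 and -1.10) or in any of the 5 classes at week 3 (-0.92 for H1, -1.35, -1.22, -1.53 and -1.13). Without control number 1, all 5 classes were below sham skin with no overlap at week 1 (-0.96, -2.03, -1.58, -1.88 and -1.39) and at week 2 (-0.89, -1.65, -1.41, -2.25 and -1.38). Radiated and control skin are both set against the same 3 sham libraries here. Between radiated and control skin of 1 week, every class overlapped in every week. Without radiated number 3, H1 and H4 were lower in radiated skin at week 4 with no overlap, at 226 to 297 against 299 to 367 CPM (-0.29) and 352 to 472 against 526 to 634 CPM (-0.43). Without control number 1, H3 did not overlap at week 2, at 23.2 to 44.1 CPM in radiated and 17.1 to 22.4 CPM in control skin, and the week 1 ratios were 0.64 for H1, 0.70 for H2A, 0.29 for H2B, 0.88 for H3 and 0.24 for H4, all with overlap. These week 1 ratios without radiated number 3 were 0.11, -0.07, -0.07, -0.09 and -0.08, also with overlap.

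Set against sham skin gene by gene, in edgeR's quasi-likelihood test with Benjamini-Hochberg adjustment over all genes, members fell and none rose. At week 1 in radiated skin, 13 of 51 tested members fell (25.5%), against 1.21% of all tested genes that did. At week 2, 27 of 52 fell (51.9%), against 2.9% of all genes. At week 3, 6 of 51 fell (11.8%), against 7.75% of all genes, and at week 4, 2 of 52 fell (3.85%), below the 11.5% of all genes. None rose, where 0.543%, 2.16%, 10.4% and 15.2% of all genes did at weeks 1 to 4. The median log2 fold change over the tested members was -1.30, -1.59, -0.61 and -0.11 at weeks 1 to 4, while over all tested genes it was 0.01, -0.01, 0.03 and -0.03. The members' median without radiated number 3 was -0.82 at week 3, with 51 of 51 negative, and -0.29 at week 4, with 45 of 51 negative. Members whose radiated libraries were all below all sham libraries numbered 33, 39, 12 and 5, or 64.7%, 75%, 23.5% and 9.62% of those tested, against 8.31%, 11.5%, 15.5% and 17% of all genes. The calls leaned on single libraries. The count at week 1 was 0 without radiated number 3, where the median was -1.57 and 50 of 51 members were negative, and it was 2 without sham number 3 or radiated number 4 and 8 without sham number 2. At week 2 it was 5 without sham number 3, 11 without radiated number 3 (median -1.71) and 14 without sham number 2 or radiated number 2. At week 3 it was 1 without sham number 2 and 2 without sham number 1 or 3 or radiated number 1 or 2, and at week 4 it was 0 without radiated number 1. In those runs 0% to 0.553% of all genes were called lower at week 1, 0.507% to 1.56% at week 2, 1.7% to 4.62% at week 3 and 7.2% at week 4.

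In control skin, 9 of 52 tested members fell at week 1 (17.3%), against 1.65% of all genes, and 23 of 51 fell at week 3 (45.1%), against 6.19%. None rose at those weeks, where 3.28% and 5.18% of all genes did. None was called at week 2, where 2.44% of all genes were called in either direction, or at week 4, where 3.65% were. At week 2, 2 members had an unadjusted p under 0.05 in edgeR's test and DESeq2 called 1, beside 10.6% of all genes. At week 4 these counts were 10 and 3, with 9.35% of all genes called by DESeq2. The median log2 fold change over the members was -1.60, -0.66, -1.38 and -0.49 at weeks 1 to 4, and over all genes -0.04, -0.05, -0.04 and -0.03. The members with no overlap below sham skin numbered 33, 1, 35 and 6, against 11.1%, 9.15%, 14% and 10% of all genes. Without control number 1, 35 members were called at week 1 and 38 at week 2, all lower, with medians of -2.20 and -1.90, and of all genes 3.85% and 5.92% were then called lower. DESeq2 called 34 at week 1 and 35 at week 3, beside 16.5% and 18.8% of all genes in either direction. The test with no filter on low counts called 17 at week 1, beside 4.61% of all genes, and the single fit of all 35 libraries called 11 at week 3, beside 11.5%. The week 1 count was 0 without sham number 2 or 3 or without control number 2, 3 or 4, and the week 3 count was 3 without sham number 3, 7 without sham number 2, 6 without control number 3, 12 without control number 1 and 13 without control number 2. In those runs 0% to 0.136% of all genes were called at week 1 and 3.46% to 5.35% at week 3.

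**Figure D2:**
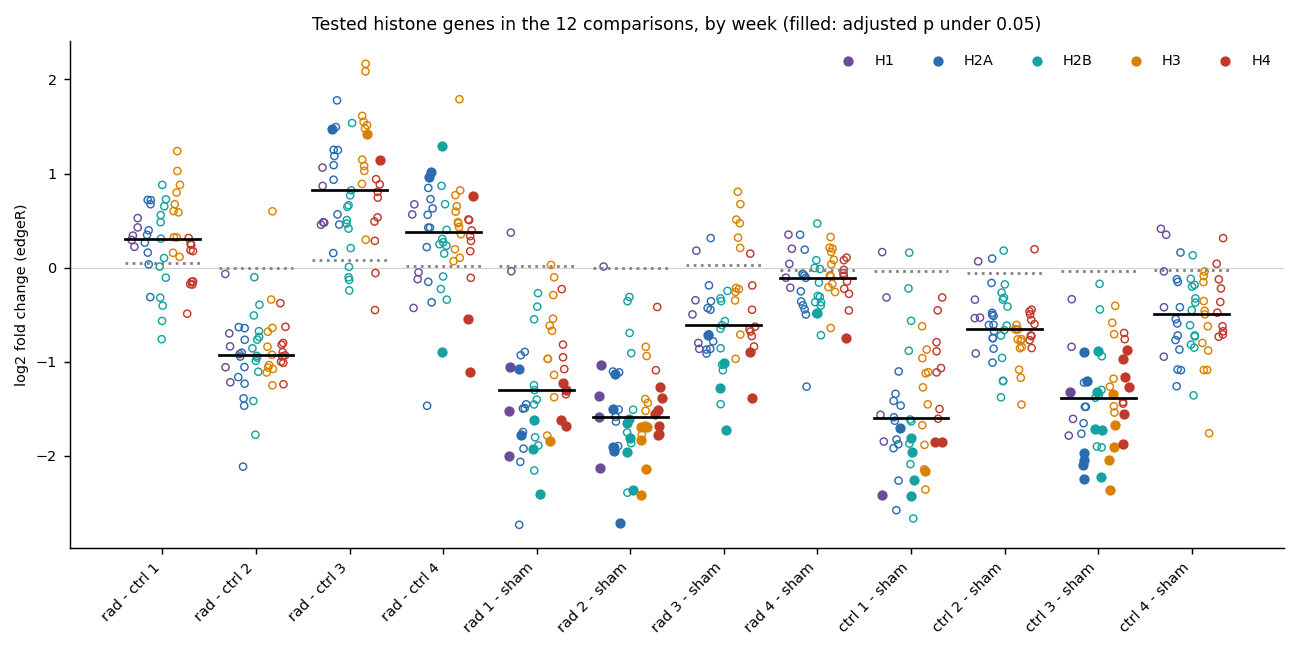
Log2 fold change of each tested member in the 12 comparisons, coloured by class; each point is 1 gene, filled points passed edgeR's test with an adjusted p under 0.05, solid lines mark the medians of the members and dotted lines those of all tested genes. Against sham skin the points of radiated week 2 lie almost all below 0 with a median of -1.59, while those of radiated week 4 centre on -0.11, or on -0.29 without radiated number 3.

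Within a week, radiated against control skin asks another question, that of the radiated site against skin of the same animals, and there few members were called. At weeks 1 and 2 none of 48 and 51 tested members was called, where 0% and 0.00577% of all genes were. Unadjusted p-values under 0.05 in edgeR's test were found for 2 members at week 1 and 3 at week 2. DESeq2 called 0 members at both, beside 2.26% and 3.9% of all genes. At week 2 the median member was -0.93 and 50 of 51 were negative, but this rested on control number 1: without it the class ratios were 0.01 for H1, 0.06 for H2A, 0.09 for H2B, 0.52 for H3 and -0.13 for H4, against -0.56, -0.99, -0.72, -0.85 and -0.84 with it, and the median member was 0.33 with 38 of 51 positive. With the mouse as a replicate block, H4c14 alone was called at week 2 (log2 fold change -0.74, adjusted p = 0.0288), beside 3.7% of all genes in that run.

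At week 3, 3 of 51 members rose in radiated over control skin (5.88%), against 13.6% of all genes that did: H2ac11 by 1.47 ± 0.44 (SE, adjusted p = 0.0351), H3c7 by 1.42 ± 0.47 (adjusted p = 0.0489) and H4c2 by 1.15 ± 0.35 (adjusted p = 0.0359) on the log2 scale. The median over members was 0.82, with 46 of 51 positive, and over all genes 0.08. Without radiated number 3 the members' median was 0.50, with 43 of 51 positive, 0 called higher and 1 called lower. The count over both directions was 9 with the replicate block, 10 with DESeq2 and 15 with scaling by library totals, beside 21.1%, 28.9% and 30.2% of all genes. Under that scaling the median of all genes moved up by 0.24. The count was 9 without radiated number 1, beside 22.8% of all genes, and 0 to 2 without any other single library. H2bc11 and H3c7 were the 2 members whose groups did not overlap, against 15.2% of all genes higher in this way. Without radiated number 3, H3c7 stood at 0.73 (adjusted p = 0.0933).

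At week 4 members went both ways. H2bc11 (1.29 ± 0.40, SE, adjusted p = 0.0242), H2ac4 (1.02 ± 0.35, 0.0352), H2ac12 (0.96 ± 0.34, 0.0417) and H4c9 (0.76 ± 0.23, 0.0215) rose, 4 of 52 members (7.69%) against 24.2% of all genes that did. H4c14 (-1.11 ± 0.15, 0.00025), H2bc21 (-0.90 ± 0.20, 0.005) and H4c3 (-0.55 ± 0.12, 0.00464) fell, 3 of 52 (5.77%) against 24.2%. With scaling by library totals the split was 7 higher to 3 lower, and with the replicate block it was also 7 to 3, beside 27.5% higher and 20% lower, and 21.4% and 21.3%, of all genes. The calls of H4c14 and H2bc21 held in each alternative run, that of H4c3 in all but the single fit of all 35 libraries, and those of the 4 genes that rose were each lost without control number 3. The groups did not overlap for 1 member higher, H2bc11, and 3 lower, H4c14, H2bc21 and H4c3, against 23.2% and 22.8% of all genes. The count over both directions was 19 without control number 1, 4 without radiated number 1 and 3 without control number 3, beside 47.1%, 43.9% and 43.3% of all genes. A change over the weeks in the difference between radiated and control skin was called by edgeR's interaction test in 0 of 52 members (5 with an unadjusted p under 0.05), against 15.6% of all genes. DESeq2's likelihood ratio test called 1 member, beside 20.2% of all genes.

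Of the H1 genes, the linker histones, H1f2 was called in no comparison, with values from 38.6 to 133 CPM over the 35 libraries, and H1f4 fell only in radiated week 2 against sham skin (-1.03, adjusted p = 0.0394, edgeR's quasi-likelihood test with Benjamini-Hochberg adjustment, as for all adjusted p-values here). H1f5 fell in radiated skin at week 1 (-1.52, adjusted p = 0.0274) and week 2 (-1.59, adjusted p = 0.0267).

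H1f1 (Hist1h1a in GENCODE, ENSMUSG00000049539, chr13:23763666-23764406, + strand), of whose 31-base words only 0.281% are shared with another gene, was at 12.4, 11.1 and 32.6 CPM in sham skin. In radiated skin it was at 4.87, 4.43, 4.70 and 4.85 CPM at week 1, 4.87, 1.99, 4.56 and 5.61 CPM at week 2, 8.23, 6.30, 8.49 and 16.3 CPM at week 3, and 17.7, 16.0, 17.0 and 11.4 CPM at week 4. In control skin it was at 6.65, 2.28, 2.20 and 2.94 CPM, then 31.9, 4.00, 2.84 and 1.15 CPM, 1.62, 8.72, 4.60 and 6.91 CPM, and 13.3, 13.0, 6.07 and 6.80 CPM. Every radiated library of weeks 1 and 2 and every control library of weeks 1 and 3 was below all sham libraries, and at week 4 both kinds of skin overlapped with sham skin. H1f1 fell against sham skin by 2.00 ± 0.37 (SE, adjusted p = 0.03) and 2.13 ± 0.46 (adjusted p = 0.0351) in radiated skin of weeks 1 and 2, and by 2.42 ± 0.51 (adjusted p = 0.0407) in control skin of week 1, on the log2 scale. Over the alternatives these adjusted p-values reached 0.141, 0.147 and 0.254, each call being lost without sham number 3.

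H1f3 (Hist1h1d, ENSMUSG00000052565, chr13:23553262-23560686, + strand) has its stem-loop well inside the long annotated transcript. It was at 61.3, 58.0 and 99.6 CPM in sham skin, at 38.7, 31.1, 34.2 and 37.8 CPM in radiated week 1, and at 26.7, 18.0, 23.9 and 44.8 CPM in radiated week 2. These groups did not overlap, and the gene fell by 1.05 (adjusted p = 0.0476) and 1.36 (adjusted p = 0.0469). In radiated skin of weeks 3 and 4 it was at 26.3, 33.5, 47.7 and 53.7 CPM and at 62.3, 69.6, 78.7 and 50.8 CPM. In control skin it was at 54.3, 13.7, 10.3 and 20.6 CPM at week 1, 126, 31.3, 20.3 and 25.8 CPM at week 2, 15.6, 41.1, 28.5 and 32.4 CPM at week 3 and 88.9, 61.2, 66.0 and 69.8 CPM at week 4. It fell in control week 3 (-1.32, adjusted p = 0.0335).

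Of the H2A genes, which with H2B form the outer dimers of the nucleosome, H2ac18 on chromosome 3 had the tightest sham values among those with counts in sham skin, 29.6, 29.6 and 30.3 CPM. Its radiated values were 15.9, 11.3, 15.6 and 14.0 CPM at week 1, 12.2, 12.9, 15.3 and 14.1 CPM at week 2, 13.8, 14.9, 22.5 and 19.3 CPM at week 3 and 19.1, 23.6, 25.4 and 16.8 CPM at week 4. For H2ac18 as listed, all 16 were below the lowest sham library. H2ac18 fell against sham skin at week 1 (-1.08, adjusted p = 0.0249), week 2 (-1.13, 0.0112) and week 3 (-0.71, 0.04999) and in control week 3 (-0.90, 0.0381). Reads of H2ac19 cannot be told from those of H2ac18, and H2ac19 was above 0 in 4 libraries, or in 3 after rounding. Summed over both genes, 15 of the 16 radiated libraries were below the lowest sham library, and radiated week 3 number 3 was at 30.05 CPM, inside the sham range of 29.58 to 30.31 CPM. H2ac18 also shares 89.75% of its words with Gm20634, a gene outside the rule that this sum lacks. H2ac4 was at 12.5, 10.1 and 17.8 CPM in sham skin, at 4.48, 3.45, 4.79 and 3.15 CPM in radiated week 1 and at 17.3, 16.6, 19.6 and 12.8 CPM in radiated week 4. Its control values at week 4, 14.8, 8.98, 4.83 and 4.54 CPM, overlapped with the radiated ones in number 1 only. H2ac4 fell against sham skin in radiated weeks 1 and 2 (-1.78, adjusted p = 0.0161, and -1.95, adjusted p = 0.00826).

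Among the H2B genes, H2bc8 (chr13:23571396-23572013, + strand) was the only member that fell against sham skin in all 4 radiated weeks. It was at 37.6, 44.7 and 39.6 CPM in sham skin. Its radiated values were 13.6, 9.71, 12.2 and 17.8 CPM at week 1, 14.5, 13.3, 9.48 and 15.8 CPM at week 2, 12.1, 13.1, 17.3 and 22.5 CPM at week 3 and 29.3, 32.3, 28.1 and 23.4 CPM at week 4, each below the lowest sham library. The log2 fold changes were -1.62 (adjusted p = 0.0106), -1.61 (0.00826), -1.28 (0.0124) and -0.48 (0.0414), and the last was lost with no filter on low counts, in the single fit of all 35 libraries, with the replicate block and without any of the 3 sham libraries or radiated number 1, 3 or 4. In control skin H2bc8 was at 53.5, 39.1, 28.1 and 23.6 CPM at week 4, which overlapped with both other groups. H2bc18, whose upstream sequence is given above, was at 35.2, 27.3 and 40.6 CPM in sham skin, at 8.92, 7.99, 9.57 and 9.79 CPM in radiated week 1 and at 25.5, 24.4, 28.3 and 24.5 CPM in radiated week 4. It fell at weeks 1 to 3 of radiated skin (-1.93, adjusted p = 0.0053, -1.81, 0.00826, and -1.01, 0.0312) and at weeks 1 and 3 of control skin (-1.81, 0.0387, and -1.71, 0.016).

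H2bc21 (chr3:96221119-96223738, + strand), an H2B gene with a long annotated transcript of 2620 bases and 2.82% shared words, went another way. It was at 9.14, 6.16 and 9.14 CPM in sham skin, at 10.9, 7.92, 7.48 and 9.65 CPM in control week 4 and at 4.40, 6.21, 3.52 and 5.00 CPM in radiated week 4. Radiated and control skin did not overlap at week 4, and H2bc21 was called against sham skin in no week.

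The H3 genes, which encode the histone whose tail carries many of the known chromatin marks, were few in counts and split by library. H3c2, H3c4 and H3c7, the 3 most abundant, were at 9.58 to 20.4, 16.0 to 27.6 and 9.98 to 20.2 CPM in sham skin, and at 3.27 to 4.83, 2.23 to 4.97 and 1.96 to 6.10 CPM in radiated week 2. All 3 fell there, by 1.83 (adjusted p = 0.016), 2.42 (0.00826) and 1.69 (0.0497). In radiated week 4 H3c2 stood at 12.4, 11.9, 12.0 and 11.6 CPM, between the lowest and highest sham library. The ratio of summed H3 to summed H4 was 0.351, 0.214, 0.486 and 0.235 in radiated number 3 of weeks 1, 2, 3 and 4, above the other radiated libraries of each week, which had 0.119 to 0.130, 0.106 to 0.127, 0.155 to 0.188 and 0.163 to 0.180. Libraries of 1 number in different weeks come from different mice. The H3 sums in these libraries were 99.8, 44.1, 185 and 132 CPM, and H2ax, an H2A variant, was highest in its group there too, at 20.7, 11.6, 33.8 and 24.4 CPM. What moves with the number 3 was not tested. Without radiated number 3 the H3 ratio of radiated to control skin at week 3 was 0.63 on the log2 scale, against 1.34 with it.

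**Figure D3:**
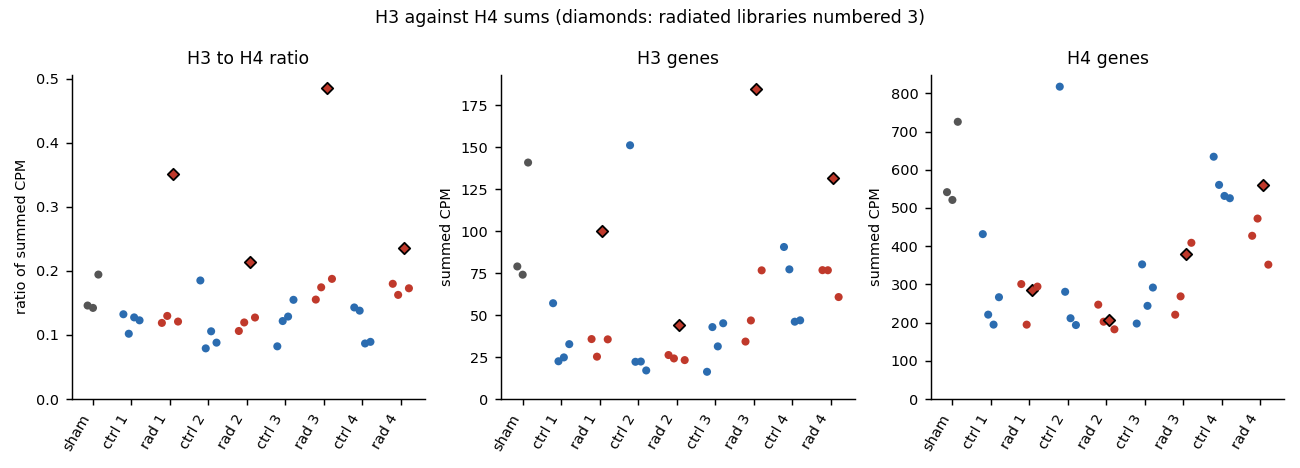
Ratio of the summed H3 to the summed H4 level (left), summed H3 level (middle) and summed H4 level (right, both in CPM) in each library, by group, with sham skin in grey, control skin (ctrl) in blue and radiated skin (rad) in red, by week. Diamonds mark the 4 radiated libraries with the number 3, whose ratios of 0.214 to 0.486 lie above the others of their week while their H4 sums of 206 to 559 CPM do not all do so.

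Of the H4 genes, which encode the most conserved core histone, 5 had the highest levels per length of transcript among the members when all libraries were averaged. H4c6 led at 128 CPM per kilobase as a mean over all libraries, followed by H4c14 at 86.0, H4c2 at 78.0, H4c1 at 75.1 and H4c8 at 54.1 CPM per kilobase. In sham skin alone the order was H4c6 at 242, H4c2 at 146, H4c14 at 138, H4c1 at 123, H2bc18 at 90.2 and H4c8 at 88.7 CPM per kilobase. H4c6 (chr13:23551258-23551648, - strand) was at 79.3, 70.6 and 134 CPM in sham skin. In radiated skin it was at 36.1, 31.6, 23.7 and 33.1 CPM at week 1, 31.9, 22.9, 22.7 and 32.7 CPM at week 2, 34.4, 48.8, 52.7 and 95.4 CPM at week 3 and 80.2, 85.4, 83.0 and 64.2 CPM at week 4. The first 2 weeks lay below all sham libraries and the last 2 overlapped with them, with log2 fold changes of -1.62 (adjusted p = 0.0154) and -1.78 (adjusted p = 0.0105) at weeks 1 and 2. In control skin H4c6 fell at week 1 (-1.86, adjusted p = 0.038), from 44.4, 19.2, 16.2 and 25.0 CPM. At week 4 its control values, 76.8, 61.8, 49.0 and 51.5 CPM, overlapped with the radiated ones.

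H4c14 (Hist2h4 in GENCODE, ENSMUSG00000091405, chr3:96261682-96263311, - strand), with 2.31% of its words shared, did not follow H4c6 at week 4. In sham skin it was at 235, 224 and 217 CPM. In radiated skin it was at 131, 56.2, 109 and 133 CPM at week 1, 105, 89.3, 65.7 and 55.6 CPM at week 2, 62.3, 81.8, 104 and 85.5 CPM at week 3 and 125, 137, 165 and 92.2 CPM at week 4. In control skin it was at 189, 104, 77.5 and 118 CPM, 228, 134, 98.8 and 88.1 CPM, 105, 147, 116 and 97.8 CPM, and 288, 276, 276 and 289 CPM. All 16 radiated libraries were below all sham libraries, and the 4 control libraries of week 4 were above them. At week 4 the mean was 130 ± 30.2 CPM with radiation and 282 ± 7.05 CPM in the controls (SD, n = 4 in both), a difference far beyond the spread in either group. Against sham skin H4c14 fell in radiated skin at week 2 (-1.51, adjusted p = 0.0105), week 3 (-1.39, 0.00566) and week 4 (-0.75, 0.0174) and in control week 3 (-0.97, 0.0103), and the value of radiated week 1 was -1.08 (adjusted p = 0.0805). The week 4 call against sham skin was lost with the replicate block (adjusted p = 0.0526) and without radiated number 1 (adjusted p = 0.0507). Because H4c14 is the H4 gene with the most counts, the H4 sum of radiated over control skin at week 4 was -0.31 with it and 0.20 without it.

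**Figure D4:**
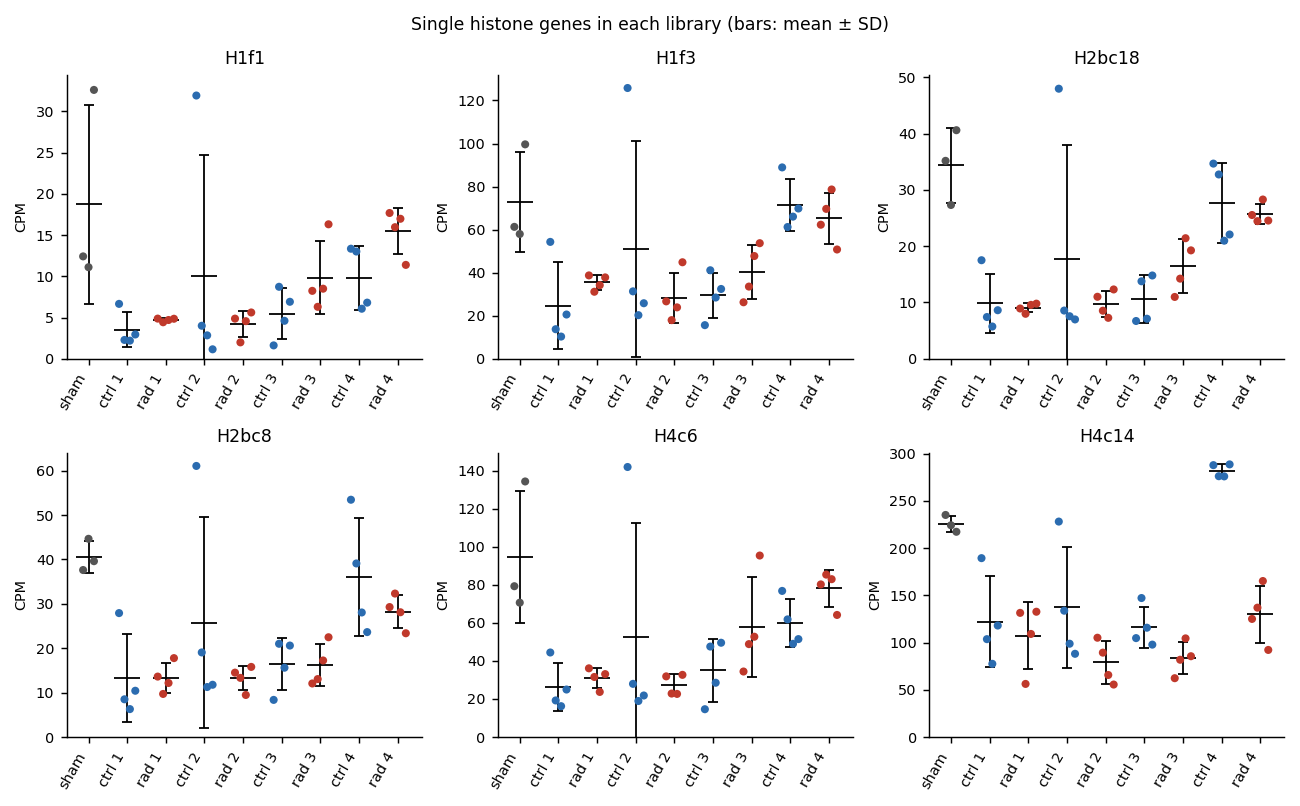
Level of 6 members in every library (CPM, TMM-scaled), by group, with sham skin in grey, control skin in blue and radiated skin in red; points are libraries, and the bars give the mean and the SD, cut at 0. H4c14 in radiated week 4, at 92.2 to 165 CPM, lies below its control at 276 to 289 CPM, while H1f1 in the same groups overlaps at 11.4 to 17.7 and 6.07 to 13.3 CPM.

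The annotated length after the stem-loop gave a further way to order the members, since transcripts that run on past it can end in poly(A). The annotated transcripts of 15 members ended within 100 bases after the stem-loop and those of 13 ended over 300 bases after it. In radiated week 1 against sham skin, the medians were -1.56 over 14 tested members with a short end, 6 of which fell, and -0.67 over 13 with a long end, 1 of which fell. At week 2 they were -1.85, with 9 that fell, and -1.09, with 5 that fell, at week 3 they were -0.68, with 2 that fell, and -0.26, with 1 that fell, and at week 4 they were -0.17 and -0.08, with none called in either. Of all tested genes, 1.21%, 2.9%, 7.75% and 11.5% fell at weeks 1 to 4. In control against sham skin of weeks 1 to 4, the medians with a short end were -1.90, -0.76, -1.48 and -0.73. Those with a long end were -0.89, -0.61, -1.18 and -0.13. The 25 members with no stem-loop match had medians of -1.25, -1.65, -0.63 and -0.18 in radiated weeks 1 to 4. Another 3 members ended in between. The difference between these sets was not tested.

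Genes that act with the histones were counted for comparison, beside which 13.6% of all genes rose and 13.6% fell in radiated over control skin at week 3, and 24.2% rose and 24.2% fell at week 4. Of 12 factors that start or process histone mRNA, 1 was called lower in radiated than in control skin at week 3 and 2 at week 4, and 1 lower in radiated week 4 than in sham skin. Slbp had log2 fold changes of -0.37, -0.23, -0.03 and -0.02 in radiated weeks 1 to 4 against sham skin, and Npat of -0.12, 0.28, -0.27 and 0.14, none of them past the threshold. Casp8ap2, a protein of the histone locus body, fell at weeks 3 and 4 in radiated against control skin (-0.40 and -0.26), and Lsm11, of the U7 snRNP that cuts histone pre-mRNA, fell at week 4 (-0.68, and -0.64 against sham skin). Of 20 S phase and proliferation genes, 11 rose in radiated over control skin at week 3, and at week 4 17 rose and Ccne2, a G1/S cyclin, fell by 0.47. Against sham skin, 2 of the 20 fell in radiated week 1, 3 in week 2 and none in weeks 3 and 4, where 3 and 6 rose, while of all genes 1.21% and 2.9% fell at weeks 1 and 2 and 10.4% and 15.2% rose at weeks 3 and 4. In control skin 4, 0, 4 and 1 of the 20 fell at weeks 1 to 4, where 1.65% and 6.19% of all genes fell at weeks 1 and 3, and 2.44% and 3.65% were called in either direction at weeks 2 and 4. Mki67, a protein of dividing cells, was at 216, 175 and 344 CPM in sham skin, 74.2, 76.2, 74.8 and 67.3 CPM in radiated week 2 and 225, 238, 278 and 210 CPM in radiated week 4. In control skin of week 2 Mki67 was at 402 CPM in number 1, the library with the high histone sum, and at 64.7, 57.2 and 35.1 CPM in the other 3.

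Of 12 histone genes with other names, most of them variants that are also made outside S phase, 2 rose and 2 fell in radiated over control skin at week 3, and 3 rose and 5 fell at week 4, so that the share that rose at week 4 was near that of all genes. Against sham skin, 0, 0, 4 and 1 of the 12 fell in radiated weeks 1 to 4 and 1 rose, at week 4, with medians of -0.18, -0.53, -0.38 and -0.15. In control skin 1, 0, 3 and 0 fell, with medians of -0.21, -0.21, -0.32 and -0.05. H2aw, an H2A gene, was among those that fell in radiated week 3 and in control weeks 1 and 3. In control week 2 number 1, the library with the high histone sum, H2aw was at 88.2 CPM against 21.9 to 25.6 CPM in the other 3, H2ax at 22.5 against 5.72 to 6.84 CPM and Cenpa at 26.6 against 6.00 to 6.72 CPM, so these 3 were high where the members were. The 12 genes together were not: their sum was 1404 CPM there and 1680, 1461 and 1314 CPM in the other 3. Those that rose in radiated over control skin at week 4 were H2ax (0.89), H2az1 (0.56) and the centromere histone Cenpa (1.34), and among those that fell were H1f0 (-0.65), the linker histone of resting cells, and H3f3a (-0.98). Of 9 histone chaperones, 1 rose and 1 fell at week 3 and 4 rose and 1 fell at week 4.

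**Figure D5:**
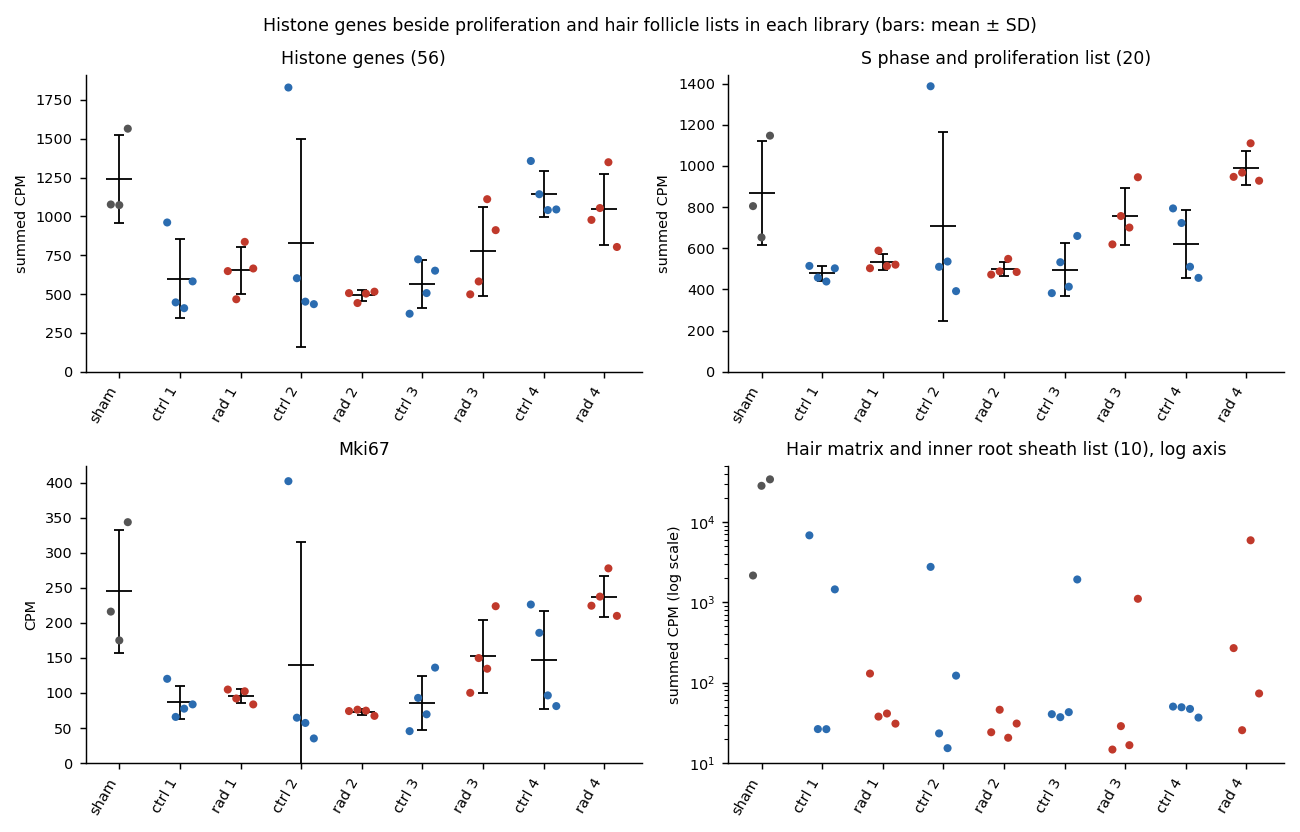
Summed level of the 56 histone genes, summed level of the 20 S phase and proliferation genes, level of Mki67, and summed level of the 10 hair matrix and inner root sheath genes on a log axis (all CPM), in each library by group; points are libraries, and bars give the mean and the SD, cut at 0. Control week 4 has histone sums of 1041 to 1357 CPM, close to those of sham skin, with hair gene sums of 36.7 to 50.3 CPM, far below sham skin at 2156 to 33960 CPM.

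Markers of the cells that skin biopsies hold moved along with these comparisons. The 10 genes of the hair matrix, where follicle cells divide, and of the inner root sheath summed to 2156 to 33960 CPM in sham skin and to 30.9 to 130, 20.6 to 46.0, 14.7 to 1106 and 25.6 to 5918 CPM in radiated skin of weeks 1 to 4, with 10, 10, 6 and 2 of the 10 lower than in sham skin. The highest sum of radiated week 4 was that of number 3, through which the histone sum overlapped with sham skin, and the other 3 were at 25.6 to 269 CPM. At week 3 the highest was number 4, and number 3 was at 16.7 CPM. In control skin they summed to 26.3 to 6820, 15.3 to 2761, 37.2 to 1925 and 36.7 to 50.3 CPM, with 0, 0, 5 and 10 lower, and the highest values of weeks 1 and 2 were those of number 1. In control week 4 all histone classes overlapped with sham skin while all 10 hair genes were lower than in it. Markers of skeletal muscle summed to 5817 to 12560 CPM in sham skin, 22120 to 34860, 24270 to 43140, 14370 to 29080 and 1130 to 17300 CPM in control weeks 1 to 4 and 879 to 2064 CPM in radiated week 4. Of the 5 muscle markers, 4, 4 and 3 were higher in control weeks 1, 2 and 3 than in sham skin, and 4 were lower in radiated than in control skin at weeks 3 and 4. Of 4 adipocyte markers, 3 were higher in control week 1 than in sham skin, with sums of 360 to 821 against 109 to 260 CPM. Leukocyte markers summed to 69.8 to 124 CPM in sham skin and 504 to 754 CPM in radiated week 4, and fibroblast markers to 5044 to 11520 and 27820 to 46730 CPM. The 5 markers of basal keratinocytes summed to 5730 to 15670 CPM over all libraries, but 3 of the 5 were lower and 1, Krt14, was higher in radiated than in control skin at weeks 3 and 4. At week 4 Krt15, a keratin of basal and follicle stem cells, was at 20.3 to 444 CPM in radiated and 3540 to 4733 CPM in control skin, and Krt14 was at 6431 to 7735 and 1448 to 1955 CPM. No marker of these lists was at 0 in all libraries, and their part in the histone results was not tested.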

How the data were processed

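Bulk RNA-seq of 35 mouse skin libraries was analysed. Per the submitters' processing notes, the authors used Trim Galore 0.6.7 and kallisto 0.46.2 with build mm10, and the labels' protocols also name DESeq2. The deposited table holds estimated counts for each gene, not scaled between libraries. The transcriptome release and the step from transcripts to genes are not given in the sources used here. The estimated counts were rounded to whole numbers.

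Tests used edgeR 4.0.16 under R 4.3.3 (filterByExpr, TMM scaling, quasi-likelihood F test, Benjamini-Hochberg adjustment over all tested genes, threshold 0.05), on the 2 groups of each of 12 comparisons, and over weeks with an interaction model. CPM used TMM factors over 19813 genes. Class sums are sums of CPM and carry no test. The script was tested on simulated counts. Alternatives were scaling by library totals, no filter on low counts, DESeq2 1.42.0, 1 fit of all libraries, a replicate block, other member sets and leaving out each library. Class sums and medians without the libraries that stood apart were added after seeing the data.

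Radiated and control libraries of a week and number were taken as 1 mouse, from the matching numbers in the labels and the 19 mice. Their deviations from the group means correlated at 0.07, 0.17, 0.05 and -0.02 on average at weeks 1 to 4, against -0.02, -0.06, -0.02 and 0.01 for other numbers. Numbers do not pair sham with other libraries. Within a group each library was taken as its own mouse, and p-values measure the spread between these libraries.

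The members and the gene lists were chosen with earlier results of these data known. Members named with values are H1f1, H1f3, the 3 most abundant of each class and up to 5 called members with the largest change in each direction of a comparison. H2bc21, H4c3 and the others called at week 4 follow this rule, and H1f5, H4c8 and H4c2 outside its comparisons were added for description. Annotation was GENCODE M21 and promoters RefSeq GRCm38.p6. Members outside the promoter table were not analysed for motifs.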

Additional observations from a re-analysis of the deposited data

Results flagged for a closer look

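Of 176 groups of 4 libraries checked, 29 held a library whose distance from the nearest of the others divided by the range of the group exceeded Dixon's 95% critical value, where chance gives about 1 in 20. Most of these were control week 2 number 1. Its summed levels were 464 CPM for H1 (the others 140 to 193), 178 CPM for H2A (28.7 to 42.0), 220 CPM for H2B (49.0 to 64.4), 151 CPM for H3 (17.1 to 22.4), 817 CPM for H4 (194 to 281) and 1830 CPM over all members (435 to 602). Among single members this library stood apart with 31.9 CPM of H1f1, 126 CPM of H1f3, 32.2 CPM of H2ac4, 48.0 CPM of H2bc18, 61.1 CPM of H2bc8, 27.9 CPM of H3c2, 26.6 CPM of H3c4, 19.9 CPM of H3c7, 117 CPM of H4c1 and 142 CPM of H4c6. It was the highest library in each of these. H4c14, at 228 CPM there, did not stand apart by this measure.

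Control week 1 number 1 stood apart with 6.65 CPM of H1f1, 22.6 CPM of H2ac18, 7.63 CPM of H2ac4, 15.1 CPM of H2bc4 and 7.77 CPM of H3c2, and control week 4 number 1 with 35.4 CPM of H2ac18. In radiated skin, number 3 stood apart with an H3 sum of 99.8 CPM at week 1 (the others 25.3 to 35.7) and 44.1 CPM at week 2 (23.2 to 26.2), and at week 3 with 20.9 CPM of H2bc4 and 23.7 CPM of H3c7. Lower than the others were radiated week 1 number 2, with an H4 sum of 195 CPM (284 to 301), and radiated week 2 number 2, with 28.9 CPM of H2A (36.3 to 37.1) and 443 CPM over all members (503 to 516).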

How the results depend on the processing

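Each count of members called is followed here by the share of all genes called in the same run, in either direction. DESeq2 gave 10 (28.9%) for radiated against control skin at week 3 and 1 (20.2%) for the change over weeks. Against sham skin it gave 26 (6.15%) and 4 (27.9%) for radiated weeks 1 and 4. For control weeks 1 to 4 it gave 34 (16.5%), 1 (10.6%), 35 (18.8%) and 3 (9.35%). With no filter on low counts, the counts against sham skin were 20 (2.23%) and 1 (18.0%) for radiated weeks 1 and 4 and 17 (4.61%) for control week 1. A single fit of all 35 libraries gave 2 (35.0%) for radiated against control skin at week 4. Against sham skin it gave 8 (6.18%), 1 (7.87%) and 11 (11.5%) for radiated week 1, control week 2 and control week 3. Scaling by library totals gave 15 (30.2%) for radiated against control skin at week 3. That scaling moved the median of all genes by 0.14 and 0.24 for radiated against control skin at weeks 1 and 3, by -0.13 for radiated week 2 and by -0.15, -0.18 and -0.17 for control weeks 1 to 3 against sham skin. With the replicate block, radiated against control skin gave 1 (3.7%) at week 2 and 9 (21.1%) at week 3. In the sham comparisons the numbers join different mice, and the replicate block gave 2 (0.691%), 10 (16.5%) and 0 (17.2%) for radiated weeks 1, 3 and 4. For control weeks 1 and 3 it gave 0 (0%) and 4 (2.66%).

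With each library left out in turn, the counts for radiated against control skin ran from 0 to 9 at week 3 and from 3 to 19 at week 4. Of all genes, 17.9% to 28.3% and 41.8% to 47.3% were called in those runs. The counts stayed at 0 at weeks 1 and 2 and for the change over weeks. The shares of all genes there were 0% to 1.3%, 0% to 1.16% and 4.97% to 9.2%. Against sham skin the counts ran from 0 to 14, 5 to 23, 1 to 9 and 0 to 4 for radiated weeks 1 to 4. The shares of all genes ran from 0.00557% to 2.88%, 0.583% to 7.94%, 6.07% to 22.0% and 19.1% to 24.5%. For control weeks 1 to 4 the counts ran from 0 to 35, 0 to 38, 3 to 20 and 0 to 1. There the shares ran from 0% to 9.84%, 0% to 12.5%, 3.46% to 13.3% and 0% to 9.26%. The class ratios of radiated to control skin at week 2 ran from -1.25 to 0.060 for H2A, -0.94 to 0.088 for H2B, -1.15 to 0.52 for H3 and -1.06 to -0.13 for H4, with the last value of each pair found without control number 1.

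Of the class ratios, 13 values moved by more than the spread between libraries and 487 did not. With medians over libraries, the H2A ratio of radiated to control skin at week 2 was 0.035. With only members that share under 50% of their 31-base words, a choice made after seeing the data, the H4 ratio of radiated to control skin at week 4 was -0.62. The same choice gave ratios to sham skin of -0.56, -0.60 and -0.52 for H2B in radiated weeks 1 to 3, and -1.78, -2.42 and -0.69 for H3 in radiated weeks 1, 2 and 4. The H4 ratio at week 4 was 0.20 without H4c14. Beyond what each change of genes or libraries does by construction, the cause was not tested. Single members were followed through the alternatives only if they were among the called members with the largest changes in each direction of a comparison. No sign of these members was reversed by any alternative. Of 491 values of these members under the alternatives, 179 missed the threshold in the same direction. The other called members were not followed in this way. Depth limits the genes of low counts, such as those of H2A and H3, whose class sums were 28.9 to 37.1 and 23.2 to 44.1 CPM in radiated week 2.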
